A study of Capra hircus with 2 samples.

Results

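The microRNAs miR-199a, miR-199b and miR-214 were measured in the mammary gland of the dairy goat (Capra hircus), in 1 small RNA library of early lactation and 1 of early involution. Lactating goats were sampled on day 10 after parturition, and involuting goats at day 218 after parturition, on day 5 of a weaning forced in late lactation. Each library held RNA from 5 goats mixed in equal parts, and no strain, treatment other than the weaning, or age is given in the labels. Weaning and the time since parturition therefore cannot be told apart, the spread between animals is unknown, and no test between stages or p-value was possible. Every interval is a 95% interval that covers counting error alone, since PCR copies of a molecule were not marked.

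Mature arms of the family were found by sequence. Numbers of tags are numbers of reads, and distinct sequences are named as such. A tag was taken when it had at least 18 nt and began at base 1, 2 or 3 of the mature form. It also had to match without mismatch over the shorter of the 2 sequences and be at most 3 bases longer. This gave 5 arms out of a panel of 151 conserved mature miRNA arms: miR-199a-5p, miR-199b-5p, the 3p arm that both miR-199 precursors share (miR-199a/b-3p), miR-214-3p and miR-214-5p. The arms took 8944 of 18031615 clean tags in lactation (79 distinct sequences) and 6428 of 7385833 in involution (86 distinct sequences). These are 0.0496% and 0.0870% of all tags.

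A miRNA precursor is a hairpin that Drosha and Dicer cut into a 5p and a 3p arm, and the arm loaded into an Argonaute protein pairs with mRNAs through its seed, bases 2 to 8. In mammals miR-199a and miR-214 can be made from one long RNA transcribed opposite to an intron of the dynamin gene DNM3, a transcript known from mesenchyme and activated by the transcription factor TWIST1. MIR199A and MIR214 were each other's nearest miRNA gene among the goat genes of RefSeq (assembly ARS1.2), and both lay within the span of DNM3. MIR199B lay within DNM1, a second dynamin gene, with MIR219 as its nearest miRNA gene. The family is known from fibroblasts, smooth muscle and fibrosis in many organs, and miR-214 is reported to bind the lactoferrin mRNA in cultured mammary epithelial cells.

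The mature forms are printed from the deposited tags to show which arms share a seed, with the seed in capitals and T for U. Only the miR-199a and miR-199b 5p arms share one.

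miR-199a/b-3p: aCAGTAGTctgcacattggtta

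miR-199a-5p: cCCAGTGTtcagactacctgttc

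miR-199b-5p: cCCAGTGTttagactatctgttc

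miR-214-3p: aCAGCAGGcacagacaggcagt

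miR-214-5p: tGCCTGTCtacacttgctgtgc

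The 5p arms of miR-199a and miR-199b can be told apart in these data by 2 substitutions outside the seed, C10T and C17T, counted from base 1 at the 5′ end and written from miR-199a to miR-199b. They are capitalised in the next pair of lines. The 3p arm has no such difference, so its tags cannot be split between the genes.

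miR-199a-5p: cccagtgttCagactaCctgttc

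miR-199b-5p: cccagtgttTagactaTctgttc

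The lactation library was 2.44 times deeper than the involution library. In both, tags of 18 to 44 nt were listed, and 22 nt was the length of 44.4% of lactation tags and 35.7% of involution tags. The panel took 82.0% of lactation tags and 75.6% of involution tags. A count of 0 allows up to 3 tags, which is 0.166 tags per 1000000 clean tags (TPM) in lactation and 0.406 TPM in involution. Epithelial marker miRNAs had a summed level of 21453 TPM in lactation and 26252 TPM in involution, led by miR-200c at 15212 and 11255 TPM. With no other tissue to compare, these levels cannot tell mammary from other epithelium. In tissue RNA, fewer cells of a type and less RNA per cell cannot be told apart.

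The miR-214-3p arm was 11.6-fold higher in involution (interval 9.93 to 13.6), while the other arms differed by less than 2-fold. It had 198 tags in lactation, or 10.98 TPM (9.50 to 12.6), and 940 tags in involution, or 127 TPM (119 to 136). miR-214-3p was thus the lowest but for its own 5p arm among the members in lactation, and above both miR-199 5p arms in involution. It was the only member called higher, where a call needs a ratio of at least 2 or at most 0.5, an interval beyond 1 and 10 TPM in a library. Of 139 panel miRNAs that reached 10 TPM, 42.4% were called higher by this rule and 5.76% lower, and 1 of the 4 members tested was. Among the 139, only 12 had a higher ratio than miR-214-3p.

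The shared arm miR-199a/b-3p, known for binding the mRNAs of MET and MTOR, was the most abundant member in both libraries. It had 7004 tags in lactation, or 388 TPM (379 to 398), and 4402 in involution, or 596 TPM (579 to 614). Its ratio was 1.53 (1.48 to 1.59), a log2 ratio of 0.62, which did not meet the call. It was 2.21 and met the call when only tags identical to the mature form were counted. The level lay near the middle of the panel in each library, at rank 58 of 151 in lactation and 61 in involution.

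miR-199a-5p, known for binding the mRNA of caveolin 1 in fibroblasts, had the lowest ratio among the members of over 10 TPM. It had 1035 tags in lactation, or 57.4 TPM (53.96 to 61.0), and 535 tags in involution, or 72.4 TPM (66.4 to 78.8). The ratio was 1.26 (1.13 to 1.40). Its paralogue miR-199b-5p had 692 tags in lactation, or 38.4 TPM (35.6 to 41.3), and 546 in involution, or 73.9 TPM (67.9 to 80.4). That ratio of 1.93 (1.72 to 2.16) missed the call by its size alone, and met it under some of the 12 alternatives, at up to 2.09. The intervals of the paralogues' levels did not overlap in lactation, where miR-199a-5p was higher, and overlapped in involution.

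miR-214-5p, the other arm of the miR-214 hairpin, was near the limit of detection. It had 15 tags in lactation, or 0.832 TPM (0.466 to 1.37), and 5 in involution, or 0.677 TPM (0.220 to 1.58). The interval of its ratio, 0.231 to 2.36 around 0.814, spans both directions, so no difference was detectable at this depth. It ranked 150 of 151 in both libraries.

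**Figure D1:**
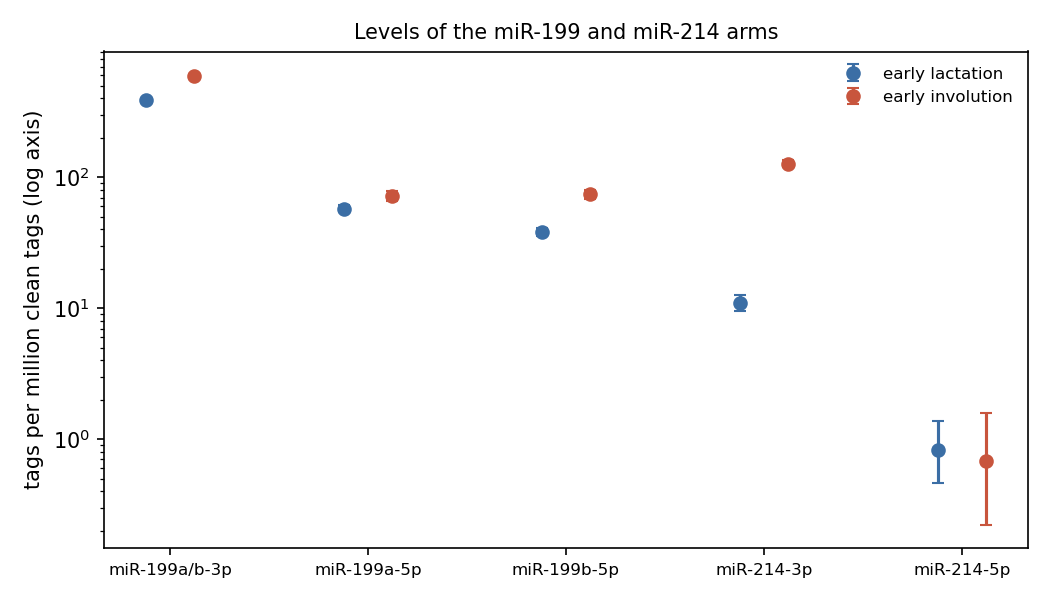
Level of each arm in TPM (log axis) in the early lactation and the early involution library, 1 pooled library each. Points are levels and bars exact Poisson 95% intervals. miR-214-3p goes from 10.98 to 127 TPM, while miR-199a/b-3p stays the highest point in both libraries.

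The median log2 ratio of the 4 members tested was 0.78, beside 0.73 over the 139 panel miRNAs, a median ratio of 1.66. Relative to the panel, miR-199a/b-3p and miR-199a-5p therefore lay below the middle and miR-199b-5p a little above it: 71, 81 and 62 of the 139 had higher ratios. The direction of the smaller differences rests on how the libraries are scaled. The calls over the panel were 59 higher and 8 lower when scaled to all clean tags, 46 and 29 with median-of-ratios factors, and 49 and 16 with TMM factors. These factors move every log2 ratio by -0.62 and -0.31. With median-of-ratios factors miR-199a-5p turned from higher to lower in involution, at a ratio of 0.822, and miR-199a/b-3p was at 1, since its ratio is the median of all 151 panel arms, those under 10 TPM included, on which these factors rest. miR-214-3p met the call under all 12 alternatives tried, at ratios from 7.13 to 16.2.

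**Figure D2:**
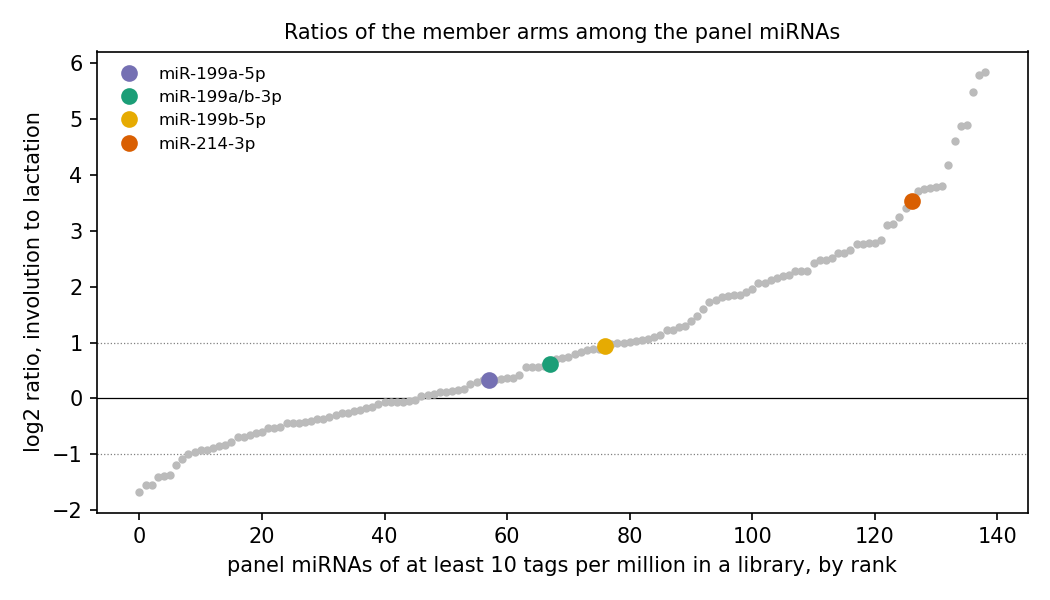
Log2 ratio of involution to lactation (vertical axis) for the 139 panel miRNAs of at least 10 TPM in a library, ordered by ratio. Coloured points are the 4 member arms tested and dotted lines mark 2-fold. miR-214-3p lies at 3.53 with 12 miRNAs above it, and the miR-199 arms lie between 0.34 and 0.95.

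Within a library the arms share its depth, so their proportions do not depend on that scaling. The 5p arms made up 19.8% of miR-199 tags in lactation (18.9 to 20.6, 1727 of 8731) and 19.7% in involution (18.7 to 20.8, 1081 of 5483). The 3p arm thus outnumbered the summed 5p arms 4.06 to 1 (3.85 to 4.28) in lactation and 4.07 to 1 (3.81 to 4.36) in involution. The difference in log2 ratio between the 5p and 3p arms was -0.01 for miR-199. For the 10 other precursors with both arms in the panel it ran from -0.66 to 5.56, with a median size of 0.86, and all 10 were further from 0. This near equality depends on which tags are counted. Free ends here means a wider set of tags that is defined further on. With tags identical to the mature forms the 5p share was 40.8% in lactation and 25.6% in involution, and with free ends it was 12.6% and 15.6%.

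The split between the miR-199 paralogues moved towards miR-199b. It held 40.1% of the 5p tags in lactation (37.7 to 42.4, 692 of 1727) and 50.5% in involution (47.5 to 53.5, 546 of 1081). The intervals did not overlap, and the difference of 10.4 percentage points lay between 9.98 and 17.1 in all 6 other ways of assigning tags.

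miR-214-3p and miR-199a-5p, whose genes MIR214 and MIR199A are neighbours, did not keep one proportion. Whether every miR-199a-5p tag came from that MIR199A gene was not tested. miR-214-3p had 0.191 tags for each miR-199a-5p tag in lactation (0.163 to 0.223) and 1.76 in involution (1.58 to 1.96). The intervals are far apart, and the order of the arms turned over. The values depend on which tags are counted: with free ends they were 0.738 (0.673 to 0.810) and 3.93 (3.59 to 4.31), and with identical tags 0.0842 and 1.71. The order turned over in both. Within the miR-214 hairpin the 3p arm held 93.0% of tags in lactation (88.7 to 96.0, 198 of 213) and 99.5% in involution (98.8 to 99.8, 940 of 945). The difference of 6.51 points was 1.93 points with free ends (97.8% and 99.7%) and 15.5 points with identical tags (83.8% and 99.3%).

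Ends of the tags were then compared in a wider set, called free ends here. It takes tags that start between 1 base before and 2 bases after the mature start, match through base 17 and carry at most 3 further bases of any kind. This set was defined after the tags had been seen, because the stricter rule left out many tags of the 3p arms. The stricter rule holds 25.1% of the free-end tags of miR-214-3p in lactation (198 of 790) and 40.7% in involution (940 of 2308). For miR-199a/b-3p it holds 56.6% (7004 of 12366) and 68.1% (4402 of 6465), for miR-199a-5p 96.7% and 91.1%, and for miR-199b-5p 96.8% and 90.4%. With free ends, miR-214-3p had 43.8 TPM in lactation and 312 TPM in involution, a ratio of 7.13 (6.58 to 7.74). miR-199a/b-3p had 686 and 875 TPM, a ratio of 1.28 (1.24 to 1.32).

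Both 3p arms had a large share of tags that begin 1 base before the mature form, a shift that also moves the seed. The earlier forms are printed with their seeds in capitals, to be set beside the mature forms listed first.

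miR-199a/b-3p, earlier start: tACAGTAGtctgcacattggtta

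miR-214-3p, earlier start: tACAGCAGgcacagacaggcagt

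For miR-214-3p this start made up 57.5% of tags in lactation (53.9 to 60.9, 454 of 790) and 43.5% in involution (41.5 to 45.6, 1005 of 2308). In lactation the earlier start was the commonest, and in involution base 1 was, at 55.5%. For miR-199a/b-3p the earlier start made up 30.9% in lactation (30.1 to 31.8, 3826 of 12366) and 24.8% in involution (23.7 to 25.9, 1603 of 6465). The share was lower in involution for both arms, with intervals apart. The extra base was T in 3823 of the 3826 and 1561 of the 1603 miR-199a/b-3p tags, and in 454 of 454 and 986 of 1005 miR-214-3p tags.

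Both 5p arms started almost entirely at base 1. For miR-199a-5p the share at base 1 was 99.4% in lactation and 95.7% in involution. For miR-199b-5p it was 98.9% and 98.5%. No tag of either began earlier in lactation, which allows a share of up to 0.280% of 1070 tags and 0.420% of 715 tags. In involution the earlier start held 2.39% of miR-199a-5p tags (14 of 587) and 0.662% of miR-199b-5p tags (4 of 604).

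Against 81 other panel miRNAs with at least 1000 tags in each library, the 3p arms stand at the top for the earlier start. The median among the 81 was 0.0563% in lactation and 0.692% in involution, and the highest was 25.5% and 24.1%. None of the 81 lay above either 3p arm in either library. The earlier start was let in after the tags of these arms had been seen, so this place is a description only. miR-214-3p itself had 790 free-end tags in lactation, under the minimum of 1000 set for the 81. In the number of tags, earlier-start miR-214-3p had a ratio of 5.40 (4.83 to 6.05) and miR-214-3p from base 1 a ratio of 9.43 (8.35 to 10.7). For miR-199a/b-3p the ratios were 1.02 (0.964 to 1.08) from the earlier start and 1.36 (1.31 to 1.41) from base 1. Over all 3′ ends, both arms had a higher ratio with the mature seed than with the shifted seed, an order that scaling does not change. These groups also differ in their 3′ ends. Between miR-214-3p sequences with the same end, the intervals overlapped. At full length the ratios were 9.33 (6.69 to 13.3) from the earlier start and 16.2 (12.4 to 21.5) from base 1. At 1 base short they were 9.82 (6.97 to 14.1) and 10.6 (7.80 to 14.8). For miR-199a/b-3p the order turned at full length. The earlier start had 156 tags in lactation and 179 in involution, against 1740 and 1577 from base 1. At 1 base short its ratios were 0.986 (0.897 to 1.08) from the earlier start and 1.11 (1.05 to 1.19) from base 1. At 2 bases short they were 0.780 and 0.825, and at 1 base short with an added T 0.687 and 0.607.

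**Figure D3:**
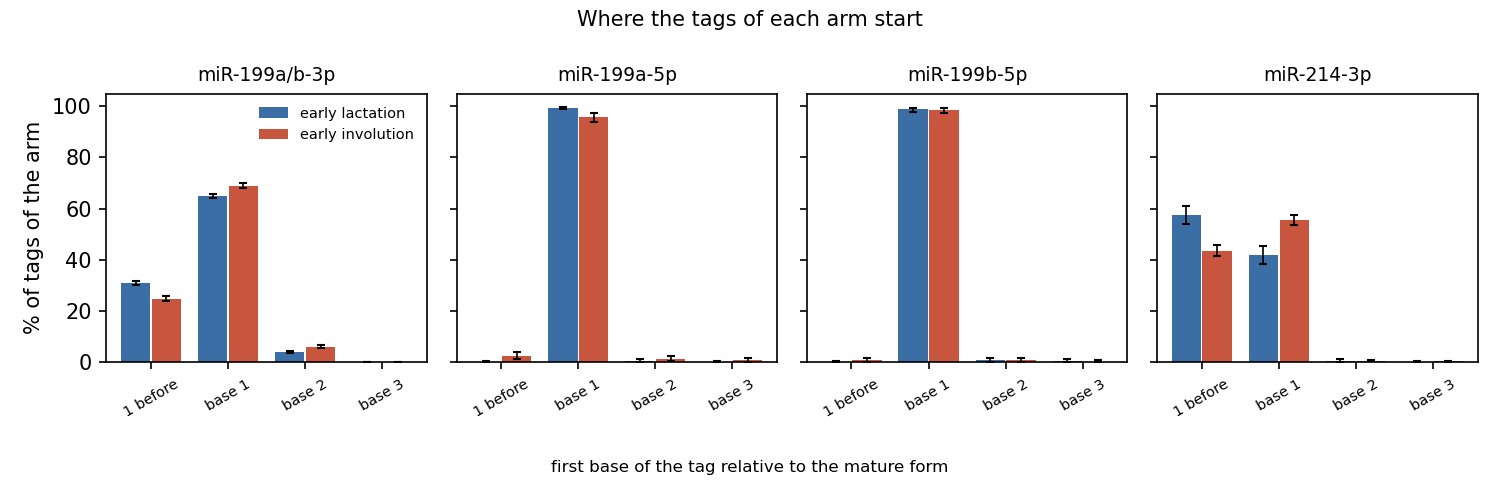
Share of the free-end tags of each arm (%) by the first base of the tag, from 1 base before the mature form to base 3, in both libraries. Bars are shares and error bars exact binomial 95% intervals. miR-214-3p starts 1 base early in 57.5% of lactation tags and 43.5% of involution tags, while both 5p arms start at base 1 in over 95% of tags.

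At the 3′ end the 3p arms reached the last mature base more often in involution, and the 5p arms less often. For miR-199a/b-3p, 20.9% of lactation tags and 40.6% of involution tags matched through the last base, which is an A. For miR-214-3p these shares were 23.4% and 37.0%. For miR-199a-5p they were 72.1% in lactation and 47.9% in involution, and for miR-199b-5p 68.0% and 53.5%. Intervals were apart for all 4 arms, and the 3p and 5p arms of the same miR-199 precursors moved in opposite directions. When each distinct sequence was counted once, whatever its number of tags, the intervals of all 4 arms overlapped, and the direction turned for miR-199a-5p (10.2 points more in involution) and miR-214-3p (-3.13 points). The opposite movement of 3p and 5p arms is thus one of tag numbers.

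**Figure D4:**
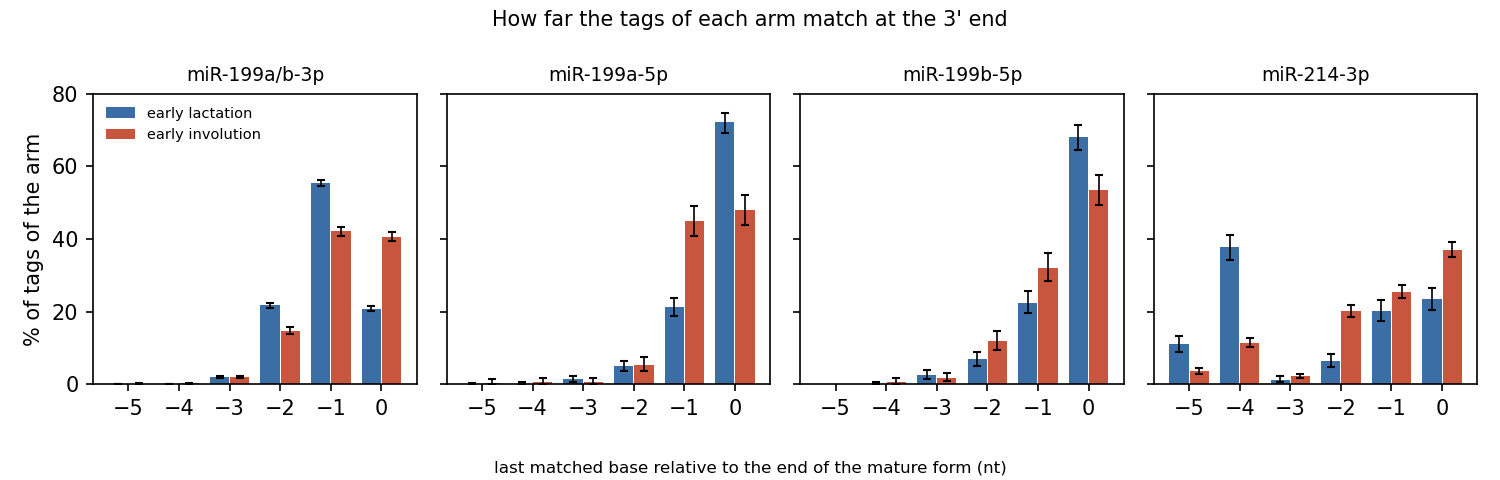
Share of the free-end tags of each arm (%) by the last base that matched the mature form, where 0 is its last base and negative values are the bases short of it, in both libraries. Error bars are exact binomial 95% intervals. The 3p arms gain at 0 in involution (20.9% to 40.6% and 23.4% to 37.0%), the 5p arms lose, and miR-214-3p has a separate peak at -4 that is 37.7% in lactation and 11.5% in involution.

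Most miR-199 tags lay within 2 bases of the mature end. Tags of miR-199a/b-3p that end 1 base short went from 55.3% to 42.1%, and those 2 bases short from 21.7% to 14.8%. As levels, full-length miR-199a/b-3p was 2.48 times as high in involution (2.35 to 2.62), the form 1 base short was at a ratio of 0.970 (0.928 to 1.01), and the form 2 bases short at 0.869. The higher total of this arm in involution was thus carried by tags that read as full length, beside the few over 2 bases short. Tags that read as full length include any 1 base short with an added A, since the last mature base is an A. For miR-199a-5p the order was the reverse: full-length tags had a ratio of 0.890 (0.773 to 1.02), and tags 1 base short a ratio of 2.84 (2.37 to 3.41). miR-199b-5p had 1.62 for full-length tags, 2.94 for those 1 base short and 3.59 for those 2 bases short.

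Some tags behind these shifts are printed here, apart from the mature forms listed first. Any base that follows the last matched one, or precedes the mature start, is in capitals. Among miR-199a/b-3p tags, the shortened form was the commonest in lactation and the full one in involution.

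miR-199a/b-3p, 1 base short: acagtagtctgcacattggtt

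miR-199a/b-3p, 1 base short with an added T: acagtagtctgcacattggttT

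miR-199a-5p, 1 base short: cccagtgttcagactacctgtt

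miR-214-3p, earlier start and 4 bases short: Tacagcaggcacagacagg

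miR-214-3p, full length with an added A: acagcaggcacagacaggcagtA

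The miR-199a/b-3p form 1 base short had 3197 tags in lactation and 1459 in involution, a ratio of 1.11, against 1740 and 1577 for the full form, a ratio of 2.21. With an added T, that form had 1163 and 289 tags, a ratio of 0.607. It was lower in involution than in lactation while the arm as a whole was higher, in TPM. For miR-199a-5p the full form had 736 and 241 tags, a ratio of 0.799, and the form 1 base short 205 and 222, a ratio of 2.64. The full form led by more than 3 to 1 in lactation, and the forms were almost equal in involution.

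miR-214-3p had its own pattern, with a group of short tags in the lactation library. Tags 4 bases short made up 37.7% of the arm in lactation (298 of 790) and 11.5% in involution (266 of 2308), and those 5 bases short 11.01% and 3.60%. The single sequence with an earlier start and 4 bases short was 15.3% of lactation tags and 5.03% of involution tags, with 121 and 116 tags. Its ratio was 2.34, far below the arm as a whole. The full form with an added A had 5 tags in lactation and 90 in involution, a ratio of 43.9 (18.2 to 139). Full-length tags had a ratio of 11.3 (9.61 to 13.3), tags 1 base short 8.97 and tags 2 bases short 22.7 (16.9 to 31.0). Tags 4 and 5 bases short had ratios of 2.18 (1.84 to 2.58) and 2.33. The difference in miR-214-3p between the libraries was largest in tags that lack at most 3 of the last bases, and in TPM it was over 2-fold in the shorter forms too.

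**Figure D5:**
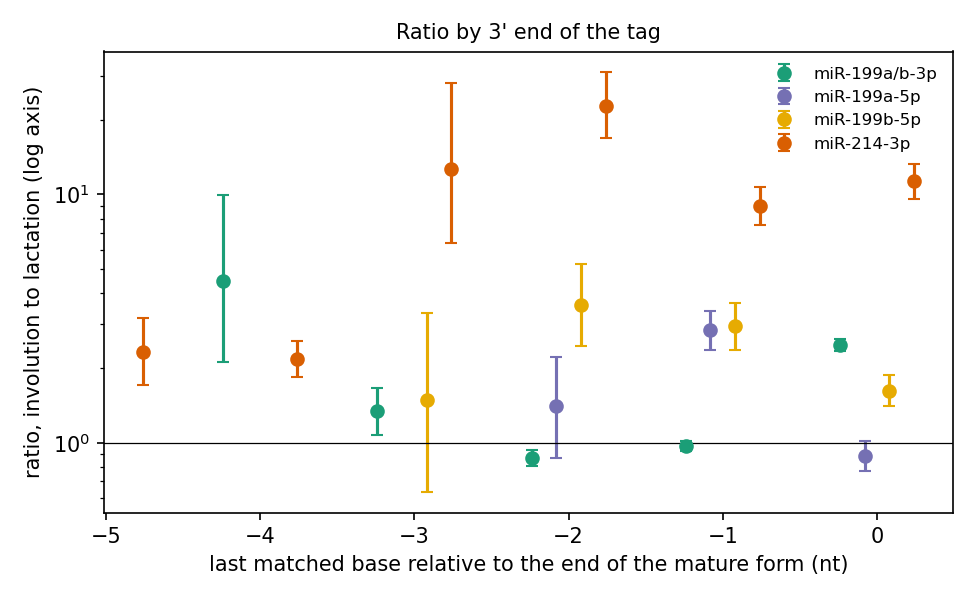
Ratio of involution to lactation (log axis) for the tags of each arm grouped by the last matched base, where 0 is the end of the mature form. Bars are exact conditional 95% intervals, wide where a group has few tags, and the groups with the fewest tags in a library are not drawn. miR-214-3p lies at 8.97 to 22.7 from -2 to 0 and near 2 in the groups shorter than -3, while miR-199a/b-3p is above 2 and miR-199a-5p below 1 at 0.

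Bases added after a shortened end, which terminal nucleotidyl transferases are known to attach, also differed between arms. For miR-199a/b-3p the added base was mostly T, in 14.5% of tags in lactation and 7.29% in involution, with A in 2.03% and 2.89%. For miR-214-3p it was mostly A, in 30.8% and 18.9%, and T was in 1.90% and 6.89%. The sum of added A and T was lower in involution for both 3p arms. For miR-199b-5p added A was 2.24% in lactation and 8.44% in involution. Added T was 0.559% there in lactation and 0 of 604 tags in involution, which allows up to 0.497%. The first base after a shortened end differs from the mature base there, so a mismatch or read error cannot be told from an added base. An added base equal to the next mature base counts as matched. An A added to miR-199a/b-3p 1 base short, or a T to miR-214-3p 1 base short, is therefore not in these shares. How far this sets the split between A and T was not tested. After the full mature end, an added base that equals the next precursor base cannot be told from a template base without a hairpin sequence. Among the 81 other miRNAs the median share of added A was 1.03% and 1.79%, and that of added T 0.119% and 0.189%. Those shares were taken from the commonest tag of each miRNA, whereas the member forms have a fixed length, so they are given as levels only.

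The miRNAs with ratios nearest to each member, among 104 that reached 100 TPM in a library, are given as a description over 2 libraries. Nearest to miR-214-3p was miR-342, known from lymphocytes and one of the leukocyte markers used here, with 17.4 TPM in lactation and 183 in involution, a ratio of 10.5. Next came 2 miRNAs of the cell cycle restraining miR-15 seed family: miR-15b with 19.7 and 258 TPM, a ratio of 13.1, and miR-195 with 28.0 and 378 TPM, a ratio of 13.5. Nearest to miR-199a/b-3p were miR-92a, miR-200a and miR-411, at ratios of 1.49, 1.47 and 1.47. Nearest to miR-199a-5p were miR-200b, miR-423-5p and miR-16, at 1.26, 1.27 and 1.25. Nearest to miR-199b-5p were miR-221, miR-125b and miR-25, at 1.976, 1.996 and 2.003.

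Other miRNAs known from mesenchymal cells differed in both directions. Of 14 listed for mesenchyme and fibrosis, 8 were called higher, 1 lower and 5 neither, beside 42.4% higher and 5.76% lower over the panel. The median log2 ratio of the list was 1.19, beside 0.73 for the panel. Higher were miR-145 of smooth muscle, from 147 to 1283 TPM (ratio 8.71), miR-195 (13.5), its cluster partner miR-497 (6.90), miR-22-3p (2.44) and miR-99a (2.13). The miR-29 family, which binds collagen mRNAs, was higher too, at 4.84 for miR-29a, 56.9 for miR-29b and 44.5 for miR-29c. miR-100 was lower, at 0.315. No call was made for miR-143-3p, the smooth muscle partner of miR-145, at 1.03, nor for miR-21 at 1.09, miR-125b at 1.996, miR-10b at 0.659 and miR-152 at 0.621.

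The summed level of the 9 mesenchymal markers was 316630 TPM in lactation and 325751 in involution, a ratio of 1.03, and the marker with the fewest tags in a library still had 373. That sum is mostly miR-143-3p, at 309788 and 318808 TPM. Of the 9, 4 were called higher, close to the 42.4% of the panel, and 1 lower. miR-214-3p lay with the higher ratios of this list, and the miR-199 arms between its extremes.

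Markers of other cell types of the gland also differed, and their part in the member ratios was not tested. Of 10 epithelial markers tested, 3 were higher and 0 lower, a smaller share higher than the 42.4% of the panel, with a median log2 ratio of -0.03 and a summed ratio of 1.22. The 3 were miR-375 at 24.2, miR-205 at 5.59 and miR-141 at 2.60, while miR-200c was at 0.740. miR-375 went from 208 to 5039 TPM and the sum from 21453 to 26252 TPM, so miR-375 weighs heavily in the summed ratio. Of 6 leukocyte arms 5 were higher, beside the same 42.4%, with a median of 2.14, while their sum was 1383 TPM in lactation and 1676 in involution. miR-155, the most abundant of them, had a ratio of 0.563, and miR-142-3p had 3.30. The endothelial arms had ratios of 0.773 for miR-126-3p and 4.18 for miR-126-5p, with sums of 7584 and 7085 TPM. Of 3 erythroid markers 2 were higher, too few to set against that share, and their sum went from 923 to 3136 TPM, led by miR-451 at a ratio of 4.62 with miR-486 at 0.837. No marker of these lists was at 0 in a library.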

How the data were processed

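Per the labels, RNA of 18 to 30 nt was selected, ligated to adaptors, reverse transcribed with PCR and sequenced on the Solexa platform. The deposited values are raw counts of clean tags, collapsed by the authors to distinct sequences with a length and a count. Aligner, trimming tool and genome build were not given in the sources used here. No miRNA sequence table was used: each of the 151 panel arms was recognised by a short conserved start from general knowledge, and its mature form was the tag of that start with the highest mean level, at 22 or 23 nt for the members. RefSeq assembly ARS1.2 served for gene names and neighbours only. Tags that matched more than 1 arm were set aside, at 0.0339% of lactation tags and 0.0643% of involution tags. Intervals are exact Poisson for levels, Clopper-Pearson for shares and conditional Clopper-Pearson for ratios. With 1 library per stage no test was made.

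Named miRNAs are all members, the 3 of at least 100 TPM nearest in log2 ratio to each, the mesenchymal list, and the 2 most abundant of each marker list. The epithelial markers called higher are named too. Members, lists and panel were chosen with earlier results of these data known. Alternatives changed scaling, tag assignment, level minimum and depth. Scripts were tested on simulated data. Python 3.11.15, numpy 2.4.6, scipy 1.17.1, matplotlib 3.10.9, R 4.3.3 and edgeR 4.0.16 (TMM factors alone) were used.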

Additional observations from a re-analysis of the deposited data

How the results depend on the processing

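Of 100 alternative values for 15 results, 82 were classed as unchanged. For ratios this means the same call, for shares that intervals stayed apart or stayed overlapping, and for panel counts a similar size. A ratio can move within that class: miR-199a/b-3p was at 1 with median-of-ratios factors, and miR-199a-5p at 1.02 with TMM factors. miR-214-3p kept its call in all 12 alternatives (7.13 to 16.2) and miR-214-5p stayed below 10 TPM. With identical tags alone, the ratios were 2.21 for miR-199a/b-3p, now called, and 0.799 for miR-199a-5p, now lower, because only full-length forms remain, and the 5p share of miR-199 differed by -15.1 percentage points. With median-of-ratios factors miR-199a-5p was at 0.822 and 29 panel miRNAs were lower, and with TMM factors 16. miR-199b-5p passed 2-fold when scaled to panel tags (2.09), with the first 18 bases identical (2.06), with 1 mismatch (2.05), with the lactation library thinned (2.04) and with free ends (2.06). The 5p share then differed by 2.51, 2.02 and 2.94 points with the first 18 bases, 1 mismatch and free ends, against -0.06, and by 0.243 and 1.41 with a start at base 1 alone or 1 base earlier, where intervals overlapped. With distinct sequences the shift in tags reaching the last base was 3.72 points for miR-199a/b-3p, -6.06 for miR-199b-5p, 10.2 for miR-199a-5p and -3.13 for miR-214-3p, the last 2 with the sign turned; the cause was not tested. Free ends and an earlier start were alternatives chosen after seeing the data. Depth limits miR-214-5p. No paired analysis was possible because each stage has 1 library, and no replicate could be left out.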

Other observations

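Tags that match the opposite strand of a member over 16 bases were looked for in both libraries. Only miR-214-5p had any, with 2 tags of 2 distinct sequences in involution, under the 3 tags that a count of 0 allows. The other 4 arms had 0 in both libraries.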
